A study of Mus musculus with 2 samples.

Results

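Vgamma6 Vdelta4 type 17 gamma-delta T cells of the infarcted mouse heart were taken as Cd3-positive cells that carried the transcripts of their receptor segments and of the scavenger receptor Scart1. A cell was a member when the UMIs (unique molecular identifiers, which count captured RNA molecules) of Trdv4, Trgv6 and Scart1 summed to at least 2, those of Cd3d, Cd3e and Cd3g to at least 1, and Cd8b1 and Foxp3 had 0. This rule found 957 cells among 9344 Cd3-positive cells and 10144 cells in all. Of these, 313 came from the anti-IgG library and 644 from the anti-PD1 library. The members were thus chosen by measured RNA, and their excess of the 3 rule genes, and of any gene compared with the other cells, is a description.

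Gamma-delta T cells carry a receptor of a gamma and a delta chain in place of alpha and beta chains. The Vgamma6 Vdelta4 lineage leaves the thymus around birth, settles in tissues and makes interleukin 17 on sensing interleukins 1 and 23, with the transcription factor Sox13 and the Src-family kinase Blk. PD1, encoded by Pdcd1, is an inhibitory receptor that dampens antigen receptor signalling when it meets its ligands.

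Both libraries came from hearts of WT mice 7 days after myocardial infarction (MI), in which heart muscle dies for want of blood. The mice of one had been injected with anti-PD1 antibody and those of the other with anti-IgG as the comparison. With 1 library per group, differences could not be checked against replicates and no p-values were computed. The labels do not say how many hearts were pooled. Sorted T cells are named in the series' design, whereas the labelled protocol digests the tissue, lyses red cells and removes dead cells but names no sort.

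The libraries held 4380 and 6026 barcodes with 22806806 and 29046341 UMIs (anti-IgG and anti-PD1, the order used throughout). Members had medians of 4541 and 4214.5 UMIs and 1999 and 1823 genes per cell. The other Cd3-positive cells (3679 and 4708) had medians of 4014 and 3789 UMIs. The libraries shared 47 barcodes, of which 0 were members in both. Levels are UMIs of a gene per 10000 UMIs of the cell set. Intervals are exact 95% counting intervals, which leave out variation between hearts and preparations and are too narrow where a gene's UMIs lie in few cells.

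The rule genes split the Cd3-positive cells into clear groups. The summed UMIs of Trdv4, Trgv6 and Scart1 were 0 in 90.2% and 85.1% of Cd3-positive cells and 1 in 1.03% and 0.934%. Among members the sum had a median of 32 UMIs (10th to 90th percentile 13 to 50.8) in anti-IgG and 26 (10 to 47) in anti-PD1. The members' sums lay mostly far above the threshold of 2 in both libraries. All 3 rule genes were present in 92.3% and 91.0% of members. Scart1, a scavenger receptor of gamma-delta 17 cells, was found in 98.1% and 98.0%, the delta segment Trdv4 in 95.2% and 96.4%, and the gamma segment Trgv6 in 93.9% and 93.2%.

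**Figure D1:**
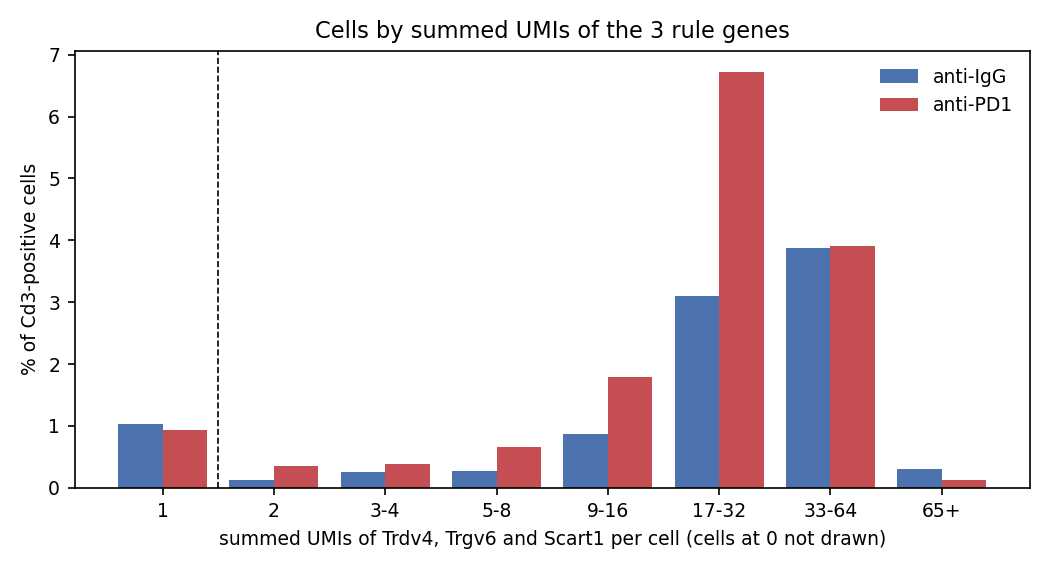
Share of Cd3-positive cells (vertical axis, percent) by the summed UMIs of Trdv4, Trgv6 and Scart1 per cell (horizontal axis), for the anti-IgG (blue) and anti-PD1 (red) libraries; cells at 0 are not drawn and the dashed line is the threshold of the rule. A sum of 17 to 32 was found in 3.11% and 6.73% of Cd3-positive cells, and a sum of 33 to 64 in 3.88% and 3.91%.

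The 16 members just inside the threshold (a sum of 2) carried Il17a in 31.25%, Pdcd1 in 56.25% and Cd4 in 12.5%. The 58 cells just outside it (a sum of 1) carried Il17a in 8.62%, Pdcd1 in 12.1% and Cd4 in 46.6%. Over all members these shares were 57.8%, 80.6% and 7.00%. A further 39 and 103 cells with a sum of at least 2 were kept out by a UMI of Cd8b1 or Foxp3. They had medians of 9704 and 9517 UMIs, over 2 times the members' medians, and 25.6% and 45.6% of them were among the cells with the highest doublet scores, against 8.31% and 7.61% of members. They count among the other Cd3-positive cells below.

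Trdv4 and Trgv6 chose the members, so their share of the receptor segment UMIs follows from the rule and is given as a description. In RefSeq (GRCm38.p6) Trdv4 lies at chr14:54075004-54075515, Trgv6 at chr13:19190368-19190929 and Scart1, there named Cd163l1, at chr7:140197218-140231145. Trdv4 gave 97.8% of the delta V UMIs of anti-IgG members and 98.6% of those of anti-PD1 members. Trgv6 gave 68.9% and 72.5% of the gamma V UMIs, followed by Trgv2 with 18.2% and 16.97% and Trgv5 with 5.37% and 5.14%. The constant region Trgc1 gave 71.6% and 71.98% of the gamma C UMIs. Other gamma-delta cells, taken as Cd3-positive cells with at least 2 UMIs of Trdc and none of the 3 rule genes, numbered 46 and 75. Their delta V UMIs came to 60.8% and 63.0% from Trdv5, and their gamma V UMIs to 56.1% and 54.7% from Trgv2. Reads of V segments from near-identical copies could be split by the counting, and a member with some Trgv2 UMIs is not shown to carry that chain. Of the 9 gamma-delta receptor genes with enough UMIs to compare, 2 were lower in anti-PD1 members, Trdv2-2 (31 and 28 UMIs, ratio 0.488, interval 0.282 to 0.841) and Trgv1 (105 and 124 UMIs, 0.638, 0.488 to 0.835), while Trdv4, Trgv6 and Trdc had ratios of 1.05, 0.905 and 0.881.

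The 15 genes highest in members against the other Cd3-positive cells held Il17a, Blk and Sox13 of the gamma-delta 17 lineage and the rule gene Scart1. Among 12621 genes, 616 (4.88%) were at least 2 times and 918 (7.27%) at most 1/2 the level of the other cells in both libraries. Il17a, the lineage's main cytokine, stood at 9.90 and 12.5 per 10000 UMIs in members and at 0.154 and 0.422 in the other cells. Blk stood at 5.61 and 5.44 against 0.121 and 0.190. Sox13, a transcription factor of the lineage, stood at 2.25 and 1.94 against 0.0483 and 0.0592. All 3 were far higher in members in each library. The receptor for interleukin 23, Il23r, was 26.6 and 20.5 times as high in members, the interleukin 1 receptor Il1r1 36.6 and 25.4 times, and the transcription factor Zbtb16 (PLZF) of innate-like T cells 17.7 and 14.2 times. Tmem176b was 11.6 and 12.9 times as high and the chemokine receptor Cxcr6 5.69 and 6.44 times.

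Besides these and the rule gene Scart1 (115 and 58.1 times), the named genes highest against the other cells were Tdrd9, Cdh10, Bcl2a1a, Mtcl1, Psd2, Tns4, Kcnk1, Zbtb7c, Slc6a13, Olfr60 and Itgb4. Tdrd9, a germline RNA helicase, had 74 and 180 UMIs in members, 208 and 94.8 times its level in the other cells. Cdh10, a cadherin, had 84 and 109 UMIs (118 and 47.3 times). The potassium channel gene Kcnk1 stood at 1.59 and 1.28 per 10000 against 0.0420 and 0.0333, and Tns4, a tensin of focal adhesions, at 1.26 and 0.816 against 0.0262 and 0.0190. Bcl2a1a, an antiapoptotic gene with near-identical copies whose reads can be split, was 70.7 and 26.7 times as high. The named genes lowest against the other cells were Cd8b1 and Foxp3, which the rule set to 0, and Eomes, Il1rl1, Dcn, Col4a1, Fstl1 and Vipr1. Eomes, a regulator of cytotoxic cells, had 1 and 6 UMIs in members, 0.0266 and 0.0550 of its level elsewhere.

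Of the fixed gene lists, 17 of 24 gamma-delta 17 surface genes, 9 of 14 type 17 receptors, 7 of 21 type 17 transcription factors, 5 of 6 type 17 cytokine genes and 8 of 12 gamma-delta receptor genes were at least 2 times as high in members. Of the interferon-gamma and cytotoxic genes, 9 of 16 were at most 1/2. So were 4 of 6 alpha-beta receptor and coreceptor genes, among them Cd8b1, which the rule set to 0. The alpha and beta constant regions summed to 5.82 and 4.26 per 10000 UMIs in members. In the other cells they summed to 7.63 and 6.11. All 7 markers given for the lineage (Trdv4, Trgv6, Scart1, Il17a, Il23r, Sox13 and Blk) were at least 2 times as high, with a summed level of 79.7 and 78.0 per 10000 UMIs against 0.935 and 1.68. Trdv4, Trgv6 and Scart1 chose the members. Their part in this count, in the list counts above and in the summed level follows from the rule. Against cells outside the rule with a sum of 0, Il17a was 100.1 and 48.7 times as high in members.

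**Figure D2:**
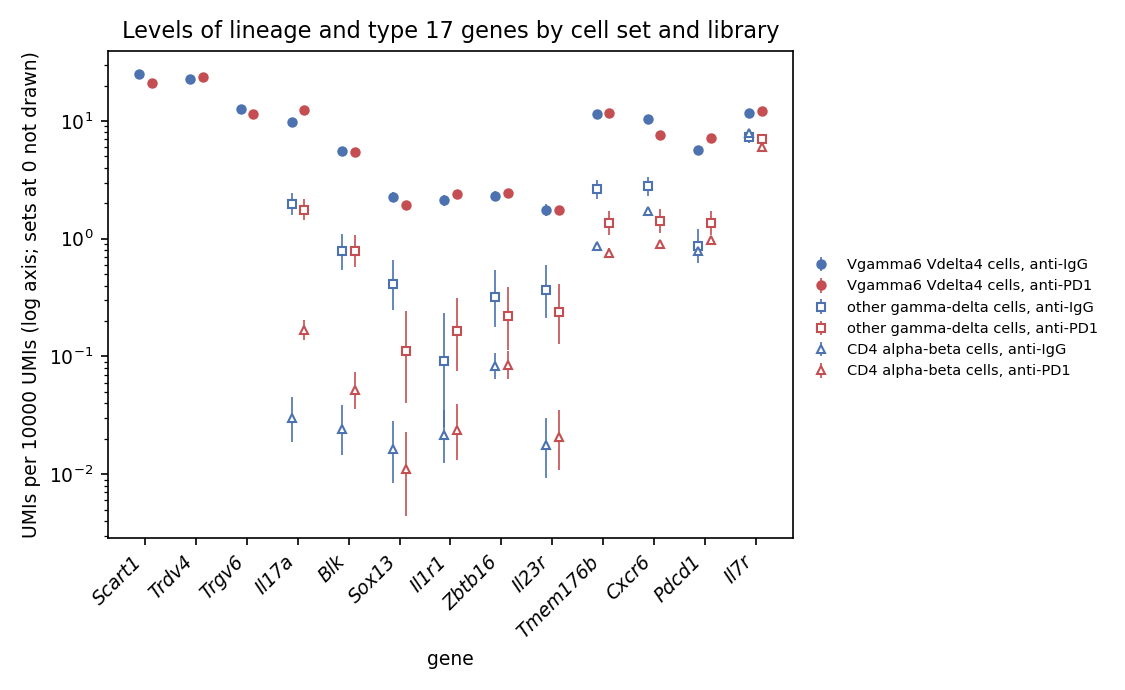
Levels (UMIs per 10000 UMIs of the cell set, log axis, 95% counting intervals) of 13 genes in Vgamma6 Vdelta4 cells (filled circles), other gamma-delta cells (open squares) and CD4 alpha-beta cells (open triangles), anti-IgG in blue and anti-PD1 in red; sets at 0 are not drawn. Blk lies at 5.61 and 5.44 in Vgamma6 Vdelta4 cells and at 0.784 and 0.793 in other gamma-delta cells.

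The same lineage genes were present at lower levels in the other gamma-delta cells, a set that also held alpha V UMIs. Il17a stood there at 1.98 and 1.77 per 10000 UMIs, Il23r at 0.369 and 0.240 and Blk at 0.784 and 0.793. CD4 alpha-beta cells (1356 and 1208 cells with Cd4 and a receptor constant region UMI, without Foxp3) had Il17a at 0.0297 and 0.169. With each cell thinned to 1000 UMIs, Il17a was found in 30.7% and 40.6% of members, in 8.70% and 10.7% of other gamma-delta cells, in 0.295% and 0.748% of CD4 alpha-beta cells and in 0 of 64 and 0 of 151 B cells, whose intervals reach 5.601% and 2.413%. Thinning left out 0 and 3 members. Without thinning, 51.8% and 60.7% of members had an Il17a UMI.

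Members made up 7.84% of Cd3-positive cells in the anti-IgG library (313 of 3992, exact Clopper-Pearson interval 7.03 to 8.72) and 12.0% in the anti-PD1 library (644 of 5352, 11.2 to 12.9). The share in the anti-PD1 library was 1.53 times as large, and the counting intervals did not overlap. With every cell thinned to 1000 UMIs first, the shares were 8.22% (7.34 to 9.16) and 12.7% (11.7 to 13.6). The antibody and anything else that differed between the 2 libraries cannot be told apart.

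In the comparison of anti-PD1 with anti-IgG, many of the members' early response genes and several cytokine genes were higher, and many of their interferon response genes lower. Among 7920 genes with at least 50 summed UMIs in members, 547 (6.91%) had a ratio of at least 1.5, of which 452 had an interval without 1, and 694 (8.76%) had a ratio of at most 1/1.5, of which 571 had an interval without 1. The median log2 ratio was -0.08 in members and -0.13 in the other Cd3-positive cells. Where counts of list genes past this fold of 1.5 are given below, these shares are the background.

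**Figure D3:**
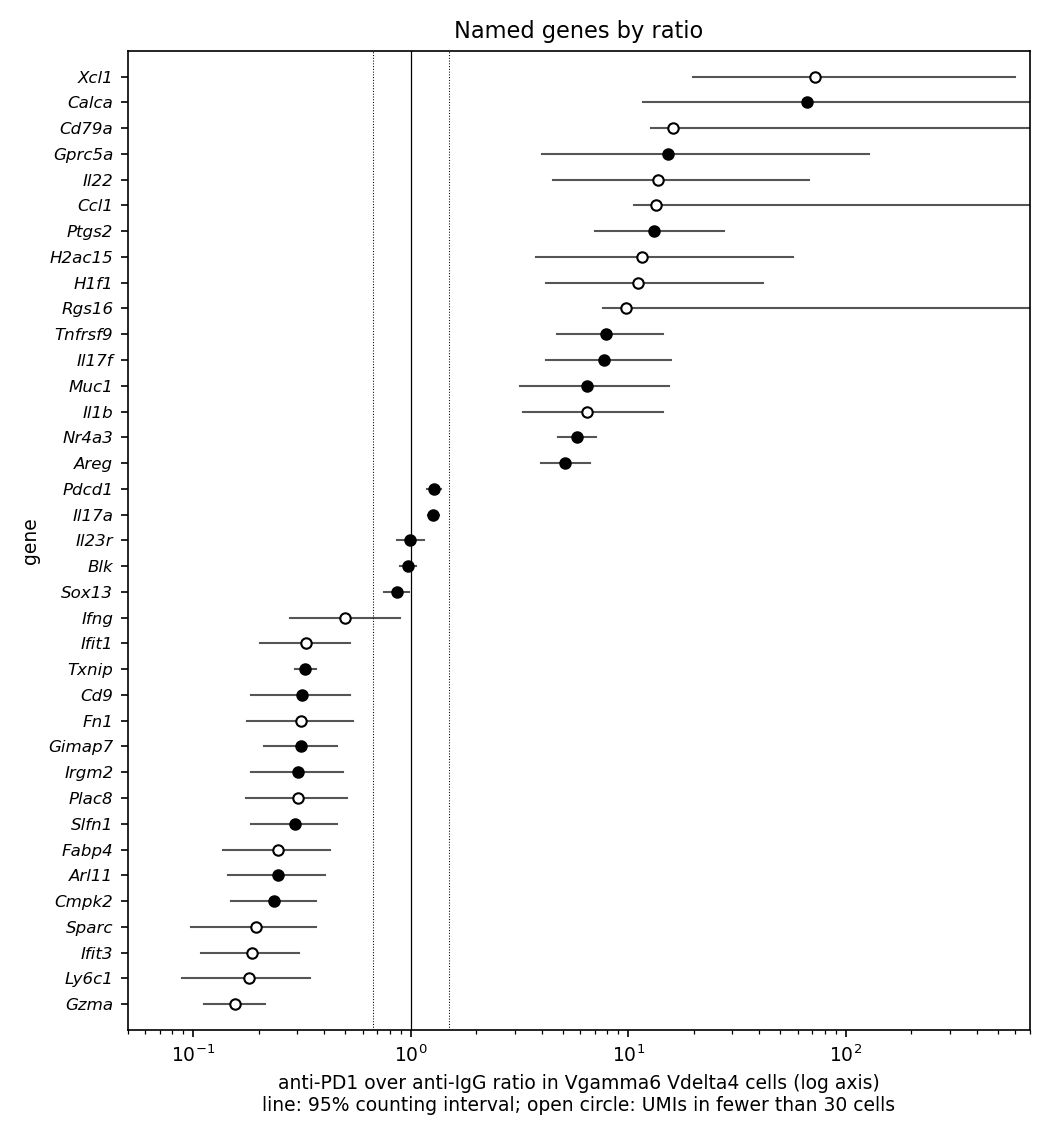
Ratio of the share of UMIs in anti-PD1 over anti-IgG members (horizontal, log axis) for the 15 highest and 15 lowest named genes and 7 lineage and cytokine genes. Lines are 95% counting intervals, dotted lines mark 1.5 and 1/1.5, and open circles mark genes seen in fewer than 30 members; Cd79a, Ccl1 and Rgs16 had 0 anti-IgG UMIs and are drawn at a floor of 3 UMIs. Nr4a3 at 5.80 has a narrow interval (4.76 to 7.12), whereas that of Calca at 65.9 runs past the axis.

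The level of Il17a differed by less than the fold of 1.5. Il17a had 1678 UMIs in 162 anti-IgG members and 3927 UMIs in 391 anti-PD1 members. Its level was 9.90 and 12.5 per 10000, a ratio of 1.26 (1.19 to 1.34). The highest-expressing 10th of members held 65.1% and 58.9% of the Il17a UMIs. Il17f, the gene of its closest relative and neighbour on chromosome 1, had 11 UMIs in 5 anti-IgG members and 157 UMIs in 40 anti-PD1 members. Its ratio was 7.71 (4.19 to 15.8), and 63.6% of the anti-IgG UMIs lay in 1 cell. With the highest cell of each library left out, 4 and 134 UMIs were left (18.1). Over the 11 alternatives the ratio of Il17f ranged from 3.91 to 18.1. Il22, a cytokine that acts on epithelium, had 3 and 76 UMIs (ratio 13.7, interval 4.51 to 67.8), but 77.6% of the anti-PD1 UMIs lay in 1 cell, and without the highest cells 2 and 17 UMIs were left (4.59). Of the 6 type 17 cytokine genes compared, Il17f and Il22 were past the fold and the other 4 (Il17a, Csf2, Tnf and the receptor gene Il17re, ratios 0.766 to 1.26) were not.

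The promoters of both Il17 genes and of Calca, the gene with the highest ratio not carried by 1 cell, are shown for the motif search on the members' genes. They are the 250 bases before the start site in RefSeq (GRCm38.p6), with matches in capitals: AGGTCA (or TGACCT on the other strand), a motif of nuclear receptors, and TGANTCA, the AP-1 motif. The Il17a promoter lies at chr1:20730655-20730904 on the plus strand, Il17f at chr1:20784271-20784520 on the minus strand and Calca at chr7:114636358-114636607 on the minus strand.
Il17a: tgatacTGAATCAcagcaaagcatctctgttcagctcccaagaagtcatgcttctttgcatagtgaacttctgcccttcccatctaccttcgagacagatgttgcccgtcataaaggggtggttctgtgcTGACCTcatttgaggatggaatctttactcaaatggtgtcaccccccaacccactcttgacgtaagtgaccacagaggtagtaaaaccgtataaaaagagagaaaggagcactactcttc
Il17f: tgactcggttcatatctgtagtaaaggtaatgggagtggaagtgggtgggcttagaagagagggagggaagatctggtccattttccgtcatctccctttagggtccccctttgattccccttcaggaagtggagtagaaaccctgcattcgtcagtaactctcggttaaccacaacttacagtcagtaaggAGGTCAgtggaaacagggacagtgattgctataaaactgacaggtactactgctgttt
Calca: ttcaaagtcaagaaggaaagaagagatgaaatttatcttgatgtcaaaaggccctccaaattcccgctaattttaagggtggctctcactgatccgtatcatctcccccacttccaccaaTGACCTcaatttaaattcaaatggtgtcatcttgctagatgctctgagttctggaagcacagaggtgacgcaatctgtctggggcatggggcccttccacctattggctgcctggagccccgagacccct
Il17a held both motifs, and Il17f and Calca held AGGTCA only. Searched on both strands of the 300-base windows (250 before to 50 after the start), AGGTCA was in 5340 of 32851 promoters (16.3%), TGANTCA in 7.81% and the cAMP response element TGACGTCA in 1.79%. AGGTCA was in 3 of 15 promoters of 14 matched genes among the 15 highest and in 2 of 15 promoters of 13 matched genes among the 15 lowest. TGACGTCA was in 0 of both sets. A match describes the letters only.

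Pdcd1, which encodes the antibody's target, was a gene of these cells. Pdcd1 stood at 5.69 and 7.24 per 10000 UMIs in members and at 0.919 and 1.19 in the other Cd3-positive cells, 6.19 and 6.11 times as high. It was found in 80.2% and 80.7% of members, and in 44.4% and 45.1% with cells thinned to 1000 UMIs, against 6.48% and 7.11% of the other Cd3-positive cells. Pdcd1 was found in 0 of 64 and 0 of 151 B cells. Its ratio between the libraries was 1.27 (1.18 to 1.37) in members and 1.29 (1.21 to 1.37) in the others. Among 9 checkpoint and inhibitory receptor genes compared, Ctla4 (108 and 500 UMIs, ratio 2.50, 2.03 to 3.11) and Tigit (16 and 72 UMIs, 2.43, 1.40 to 4.48) were higher in anti-PD1 members. Havcr2, which encodes TIM-3, had a ratio of 0.651 (44 and 53 UMIs, 0.428 to 0.994), which passed the fold under 4 of 10 alternatives and rose to 0.722. Cd274, encoding a PD1 ligand, had a ratio of 1.62 from 21 and 63 UMIs with an interval that held 1. Over the 9 genes the median log2 ratio was 0.17 in members and 0.32 in the other Cd3-positive cells.

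Many genes induced within minutes to hours of receptor signalling were higher in anti-PD1 members. Of 27 compared Nr4a, AP-1 and immediate early genes, 14 had a ratio of at least 1.5 and 1 of at most 1/1.5, with a median log2 ratio of 0.78 against 0.45 for the same genes in the other Cd3-positive cells. The rest of the list, Fos, Jun, Egr1, Myc and Cd69 among them, was not past the fold or had too few UMIs to compare. The nuclear receptor gene Nr4a3 had 109 UMIs in 51 anti-IgG members and 1170 UMIs in 381 anti-PD1 members, in 16.3% and 59.2% of members. Its relatives Nr4a1 (2.08 and 6.76 per 10000, ratio 3.25, 2.91 to 3.65) and Nr4a2 (5.22, 3.73 to 7.49) were higher as well. The AP-1 gene Fosl2 stood at 0.731 and 3.83 per 10000 (5.23, 4.35 to 6.35) and was found in 25.6% and 65.5% of members. Crem, a modulator of cAMP-driven transcription, had a ratio of 5.50 (4.34 to 7.06). The transcription factor genes Bhlhe40, Atf3, Klf4, Junb and Batf had ratios of 3.44, 3.11, 2.96, 1.90 and 1.87. The phosphatase genes Dusp4 and Dusp5 had 3.69 and 2.43, and Ier5 and Ier2 1.73 and 1.72. Klf2, which promotes exit from tissue, was the lower gene (5.62 and 3.58 per 10000, ratio 0.638). The UMIs were spread over many cells: no single member held more than 2.22% of the anti-PD1 UMIs of Nr4a3 or more than 1.42% of those of Fosl2.

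NF-kappaB subunits and feedback inhibitors were higher almost throughout. Of 15 genes compared, 13 were past 1.5 and 0 under 1/1.5, with a median log2 ratio of 0.98 in members and 0.64 in the other Cd3-positive cells. The inhibitor gene Nfkbia stood at 8.05 and 16.4 per 10000 UMIs (ratio 2.03, 1.91 to 2.16). Nfkbid had a ratio of 3.57, the subunit genes Nfkb2, Relb and Rel had 3.10, 2.65 and 1.97, and the ubiquitin ligase gene Birc3 2.75. Nfkbiz, Nfkbie and Nfkbib had 2.29, 1.97 and 1.61, Bcl3 1.77, the deubiquitinase gene Tnfaip3 1.73, the adaptor Malt1 1.58 and Tnip1 1.52. Nfkb1 (1.32) and Rela (1.28) stayed under the fold.

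**Figure D4:**
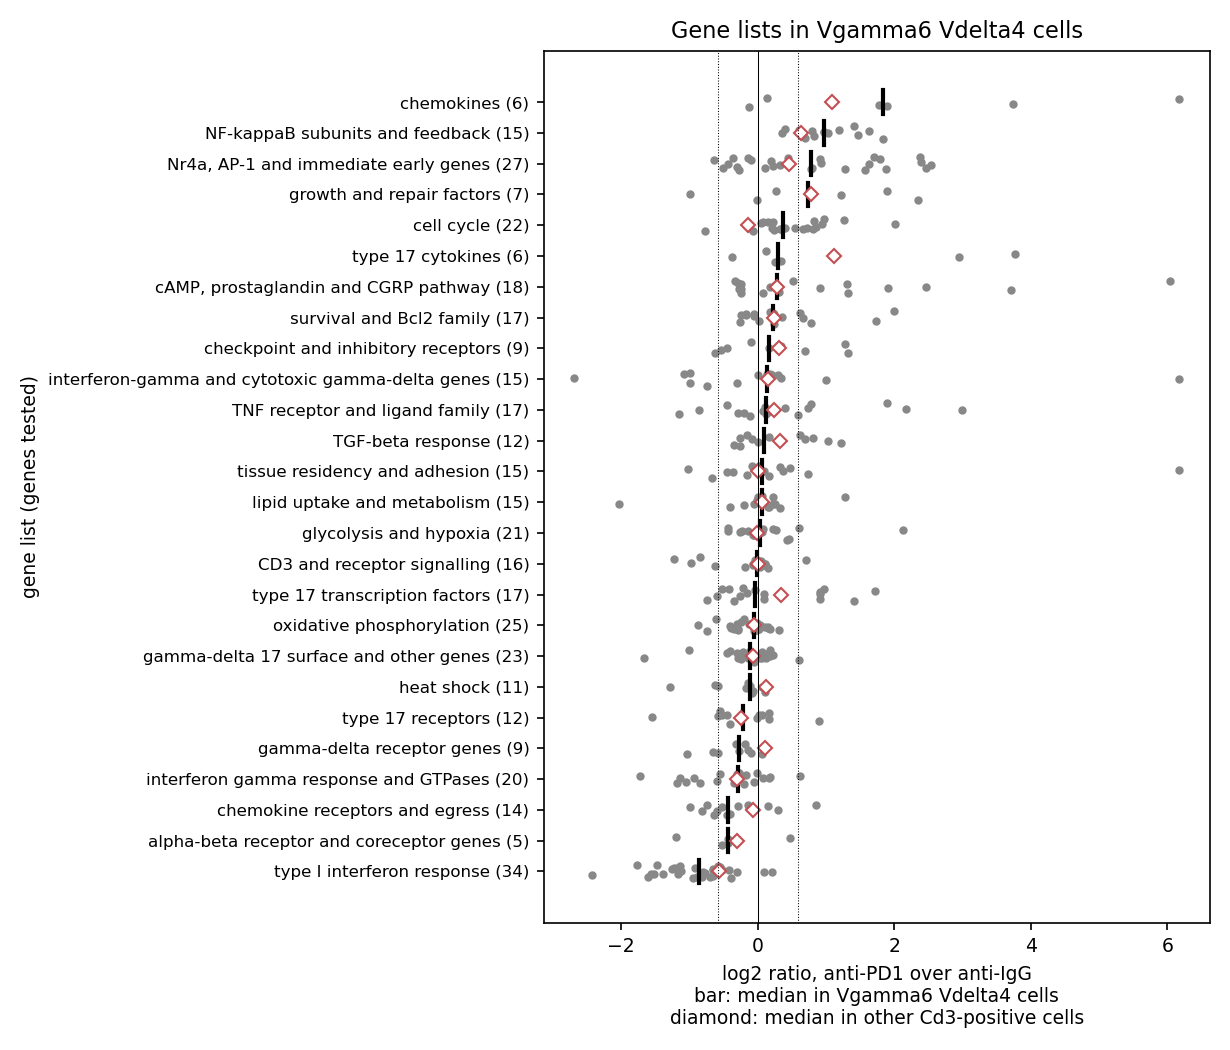
Log2 ratio, anti-PD1 over anti-IgG, of each compared gene (grey points) of the 26 gene lists in Vgamma6 Vdelta4 cells, with the list median in these cells (black bar) and in the other Cd3-positive cells (red diamond); dotted lines mark a fold of 1.5 either way. The NF-kappaB list has the medians 0.98 and 0.64, the type I interferon list -0.86 and -0.56.

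Genes of the cAMP, prostaglandin and CGRP (calcitonin gene-related peptide) pathway were higher in 7 of 18 cases and lower in 0. Their median log2 ratio was 0.28 in members and 0.28 in the other Cd3-positive cells. Calca, which encodes the CGRP peptide, had 1 UMI in anti-IgG members and 122 UMIs in 29 anti-PD1 members, a ratio of 65.9 with an interval of 11.6 to 2624. It was found in 4.50% of anti-PD1 members (3.04 to 6.40) and in 0.319% of anti-IgG members (0.00809 to 1.77). Without its highest cell in each library 0 and 98 UMIs were left, 17.6-fold higher against a floor of 3 UMIs. With members thinned to 1000 UMIs, Calca was in 0 of 96 Il17a-positive and 0 of 217 Il17a-negative anti-IgG members. The thinned ratio of 4.72 therefore rests on the floor of 3 UMIs. In the other Cd3-positive cells the ratio was 4.32 (3.12 to 6.11). Ramp3, a chain of an adrenomedullin receptor, had 59 and 411 UMIs (ratio 3.76, 2.86 to 5.03). Ptgs2, the inducible enzyme of prostaglandin synthesis, had 10 UMIs in 5 anti-IgG members and 242 UMIs in 70 anti-PD1 members (13.1, 6.99 to 27.6). In the others, where Ptgs2 was rarer, its ratio was about as large (13.0). The prostaglandin receptor gene Ptger2 had a ratio of 1.88, and the cAMP-responsive genes Per1 and Sik1 had 2.50 and 2.48.

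Growth and repair factor genes were higher in 4 of 7 cases. Their median log2 ratio was 0.73 in members and 0.78 in the other Cd3-positive cells. Areg, which encodes the repair factor amphiregulin, had 69 UMIs in 28 anti-IgG members and 653 UMIs in 141 anti-PD1 members. Its ratio was 5.11 (3.98 to 6.65), and the highest-expressing 10th of anti-PD1 members held 84.7% of the UMIs. Tnfsf11, encoding the cytokine RANKL, had a ratio of 3.71, Tgfb1 of 2.32 and Furin, a protease that matures TGF-beta, of 1.66. Pdgfb was lower (29 and 27 UMIs, 0.503, 0.286 to 0.880). Of 12 TGF-beta response genes, 5 were past 1.5 and 0 under 1/1.5: Tgfb1 and the feedback and signalling genes Tgif1 (2.04), Skil (1.76), Pmepa1 (1.61) and Smad3 (1.54). Over all 12 the median log2 ratio was 0.09 in members and 0.32 in the other Cd3-positive cells.

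The list of TNF receptors and ligands also holds the CD28-family genes Icos and Cd28. Over its 17 compared genes the median log2 ratio was 0.12 in members and 0.24 in the other Cd3-positive cells. Of the 17, 6 were past 1.5, of which 4 had an interval without 1. Tnfrsf9, the costimulator 4-1BB, had 15 UMIs in 13 anti-IgG members and 220 UMIs in 101 anti-PD1 members (ratio 7.92, 4.70 to 14.4). Tnfrsf1b, a receptor for TNF, was found in 24.6% and 57.9% of members (4.50, 3.64 to 5.61). Tnfsf11 and the costimulator Icos (1.67) were the other two. Cd40lg (0.448) and Cd28 (0.551) were lower, but without members holding a UMI of Cd4, Cd8a, Cd79a, Lyz2, C1qa or Ncr1 their ratios were 1.70 and 1.05. The survival and Bcl2 family list mixes genes for and against cell death. Of its 17 genes, 5 were past 1.5 and 0 under 1/1.5: Gadd45b (3.99), Cdkn1a (3.33), Bcl2l11 (1.72), Bcl2a1d (1.58) and Bcl2a1b (1.53), of which the last pair are near-identical copies. Over that list the median log2 ratio was 0.23 in members and 0.24 in the other Cd3-positive cells.

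Sox13 and Blk of the lineage stayed under the fold, while several other transcription factor genes were higher. Sox13 stood at 2.25 and 1.94 per 10000 UMIs (ratio 0.860) and Blk had a ratio of 0.970. Of 17 type 17 transcription factor genes compared, 6 were past 1.5: Irf4 (3.31), Relb (2.65), Rel (1.97), Rora (1.88), Stat3 (1.87) and Batf (1.87). Over all 17 the median log2 ratio was -0.04 in members and 0.34 in the other Cd3-positive cells. Tcf7, a gene of less differentiated T cells, was lower (0.598). Lef1, another such gene, had 0.663, which passed the fold under 5 of 11 alternatives and rose to 0.903 without members holding other lineage UMIs. Among 12 type 17 receptors, Il23r had 0.993 and Il1r1 1.12, the interleukin 2 receptor gene Il2ra was higher (183 and 628 UMIs, 1.85, 1.57 to 2.20) and Il6ra lower (49 and 31 UMIs, 0.342, 0.211 to 0.547). Without members holding other lineage UMIs, 19 Il6ra UMIs were left over both libraries, too few for a ratio. Of 23 other gamma-delta 17 genes, Scart2 was higher at 1.52 from 11 and 29 members, though 0.977 with members thinned to 1000 UMIs. Cd9 (0.314) and Lgals3 (0.497) were lower, and Scart1 itself had 0.847.

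Of 16 receptor signalling genes compared, 4 were under 1/1.5 and 1 past 1.5. Cd5, Cd6, Themis and Lck were lower at 0.426, 0.507, 0.555 and 0.648. Cd3d, Cd3e and Cd3g were at 1.03, 1.01 and 0.950. Cd4 UMIs were lower as well, and any link between these genes and Cd4 was not tested. Cd4 was found in 12.5% of anti-IgG and 4.35% of anti-PD1 members (73 and 59 UMIs, ratio 0.437). Without members holding other lineage UMIs, Cd4 among them, the ratios of Cd6 and Themis were 0.528 and 0.577, that of Cd5 was 0.753 and that of Lck 1.03.

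Type I interferon response genes were lower in anti-PD1 members in most cases. Of 34 compared, 25 had a ratio of at most 1/1.5 and 0 of at least 1.5, with a median log2 ratio of -0.86 in members and -0.56 for the same genes in the other Cd3-positive cells. The DNA sensor gene Ifi203 had 524 UMIs in 192 anti-IgG members and 414 UMIs in 256 anti-PD1 members, in 61.3% and 39.8% of members (ratio 0.427, 0.374 to 0.486). Its relatives Ifi206, Ifi208, Ifi209 and Ifi213 had 0.358, 0.3805, 0.418 and 0.440. The Schlafen genes Slfn1, Slfn5 and Slfn8 had 0.293, 0.339 and 0.443. Without members holding other lineage UMIs, 19 Slfn1 UMIs were left, too few for a ratio. Ifit3 (0.186) and Ifit1 (0.328), which bind foreign RNA, rested on 14 and 11 and on 15 and 14 members. Ifih1, an RNA sensor, had 0.348, the signalling genes Stat2 and Irf9 had 0.442 and 0.567, and Zbp1, Rsad2, Rtp4 and Phf11b had 0.453, 0.459, 0.517 and 0.526. Oas3, Dtx3l, Trim30a and Bst2 had 0.540, 0.562, 0.572 and 0.584, and Parp9, Isg20 and Parp14 0.618, 0.634 and 0.637.

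Genes that answer mostly to interferon gamma were less uniform. Of 20 compared, 7 were under 1/1.5 and 1 past 1.5. The lower ones were all GTPases of cell-autonomous defence: Irgm2 (50 and 28 UMIs, 0.303), Irgm1 (0.440), Gbp9 (0.454), Gbp6 (0.484), Gbp7 (0.525), Igtp (0.554) and Gbp8 (0.662). The transcription factor gene Irf1 was higher at 1.54. Ifng itself was rare in members, with 27 UMIs in 10 anti-IgG members and 25 UMIs in 17 anti-PD1 members (0.5002, 0.278 to 0.895), and stood at 0.159 and 0.0797 per 10000 UMIs against 0.631 and 0.638 in the other Cd3-positive cells.

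Of 15 compared genes of the interferon-gamma and cytotoxic gamma-delta list, Il2rb, a chain of the receptors for interleukins 2 and 15, was higher in many members (62.6% and 78.6% of cells, ratio 2.00, 1.80 to 2.22). Cd27, a marker of the interferon-gamma gamma-delta branch, was lower (32 and 28 UMIs, 0.473, 0.274 to 0.810). Of these Cd27 UMIs 19 were left without members holding other lineage UMIs, too few for a ratio. The granzyme gene Gzma had the lowest ratio of the 15 lowest genes, 0.155, but its 181 and 52 UMIs lay in 4 and 5 members, and with Trdv4 and Trgv6 alone as the rule genes the ratio was 13.5. Of 14 chemokine receptor and egress genes, 5 were under 1/1.5 and 1, Cxcr4 (1.80), was past 1.5. The lower ones included the egress receptor gene S1pr1 (1.49 and 0.892 per 10000, ratio 0.598), the skin-homing receptor gene Ccr10 (0.570), S1pr4 (0.659) and Klf2. The ratios of S1pr4 and Klf2 passed the fold under 7 of 11 alternatives each, and rose to 0.697 and 0.754. Of 15 residency and adhesion genes, 2 were past 1.5, Rgs2 (1.67) and the chemokine gene Xcl1, and 2 under 1/1.5, the integrin genes Itga4 (0.494) and Itgb1 (0.631).

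Chemokine genes were past 1.5 in 4 of 6 cases, each from few cells. Xcl1 had 2 UMIs in 1 anti-IgG member and 268 UMIs in 13 anti-PD1 members, of which 86.6% lay in 1 cell. Its ratio of 72.4 (19.8 to 600.8) became 6.48, against a floor of 3 UMIs, when the highest cell of each library was left out. All 74 UMIs of Ccl1 lay in 1 anti-PD1 member. Ccl4 (12 and 76 UMIs, 3.42) lay in 3 and 14 members and Cxcl10 (35 and 241 UMIs, 3.72) in 8 and 46. In anti-IgG, 1 member held 50% of the Ccl4 UMIs and 1 member held 62.9% of the Cxcl10 UMIs. Without members holding other lineage UMIs, 9 UMIs of Xcl1, 0 of Ccl1 and 4 of Ccl4 were left, too few for a ratio.

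Among the remaining genes with the 15 highest ratios, those seen in the most members were Muc1, a membrane mucin, with 8 UMIs in 8 anti-IgG members and 96 UMIs in 76 anti-PD1 members (6.48, 3.16 to 15.4), and Gprc5a, an orphan receptor gene, with 2 UMIs in 2 and 56 UMIs in 45 members (15.1, 3.996 to 128.0). Rgs16, a regulator of G protein signalling, had 0 UMIs in anti-IgG members and 54 UMIs in 21 anti-PD1 members, 9.72-fold higher against a floor of 3 UMIs. Of these UMIs 27 lay outside the highest cell, and without that cell the value was 4.86. The histone genes H2ac15 (3 and 64 UMIs, 11.5, interval 3.77 to 57.4) and H1f1 (4 and 82 UMIs, 11.1) rested on 2 and 10 and on 3 and 16 members. The cytokine gene Il1b had 9 UMIs in 1 and 107 UMIs in 5 members. Cd79a, a B cell receptor chain, had 0 UMIs in anti-IgG members and 89 UMIs in 10 anti-PD1 members.

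Among the remaining genes with the 15 lowest ratios, Txnip, a glucose-responsive brake on glucose uptake, was the most abundant. Txnip stood at 5.07 and 1.66 per 10000 UMIs and was found in 70.0% and 39.6% of members (ratio 0.328, 0.293 to 0.366, against 0.465 in the other Cd3-positive cells). Arl11 (53 and 24 UMIs, 0.245), Cmpk2 (71 and 31 UMIs, 0.236) and Gimap7 (78 and 45 UMIs, 0.312) were each seen in at least 18 members of both libraries. Ly6c1 (0.180) rested on 16 and 7 members. Sparc (0.194), Fabp4 (0.246), Plac8 (0.301) and Fn1 (0.313) rested on 3 to 7 anti-IgG members, and these are genes of stromal, endothelial or myeloid cells. With Trdv4 and Trgv6 alone as the rule genes, the ratios of Fabp4 and Plac8 were 1.68 and 1.17.

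Transcripts of other cell types were uneven between the members of the 2 libraries. A UMI of Cd4, Cd8a, Cd79a, Lyz2, C1qa or Ncr1 was present in 51 of 313 (16.3%) anti-IgG and 61 of 644 (9.47%) anti-PD1 members. The 12 macrophage and monocyte markers summed to 10.1 and 4.30 per 10000 UMIs in members and to 21.2 and 17.1 in the other Cd3-positive cells. Of these 12, 10 could be compared, 8 were under 1/1.5 and 1 (Csf1r, 2.08) past 1.5, and none was at 0 in either library. Lyz2, a macrophage lysozyme, had 505 and 316 UMIs, each in 14 members. B cell markers summed to 0.908 and 1.06, with 5 of 8 at 0 in anti-IgG members and 0 of 8 in anti-PD1 members. Most of this sum was Cd79b, with 150 and 191 UMIs in 32.9% and 20.2% of members. No other B cell marker was found in more than 1.55% of the members of a library. Of 7 neutrophil markers 5 and 5 were at 0. The part of these transcripts in the ratios above was not tested beyond leaving out the members that carried them.

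Outside the cell cycle list, few metabolic genes were past the fold. Of 25 oxidative phosphorylation genes compared, 0 were past 1.5 and 3 under 1/1.5, with a median log2 ratio of -0.05. Of 21 glycolysis and hypoxia genes 2 were past 1.5, Hk2 (14 and 113 UMIs, 4.36) and Pfkp (1.52), which encode enzymes of early glycolysis, and 0 were under 1/1.5. Of 15 lipid genes 1 was past 1.5 and 1 under 1/1.5 (Fabp4). Of 11 heat shock genes 0 were past 1.5 and 2 under 1/1.5 (Hspa1a, 0.6501, and Hspa1b, 0.411). Of 22 cell cycle genes 9 were past 1.5 and 1 under 1/1.5, with a median log2 ratio of 0.37 in members and -0.14 in the other Cd3-positive cells. Ccna2 (9 and 67 UMIs, 4.02) and Cdk1 (11 and 49 UMIs, 2.41), which drive S phase and mitosis, had the largest ratios of that list, while the proliferation marker Mki67 (156 and 361 UMIs) had 1.25.

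**Figure D5:**
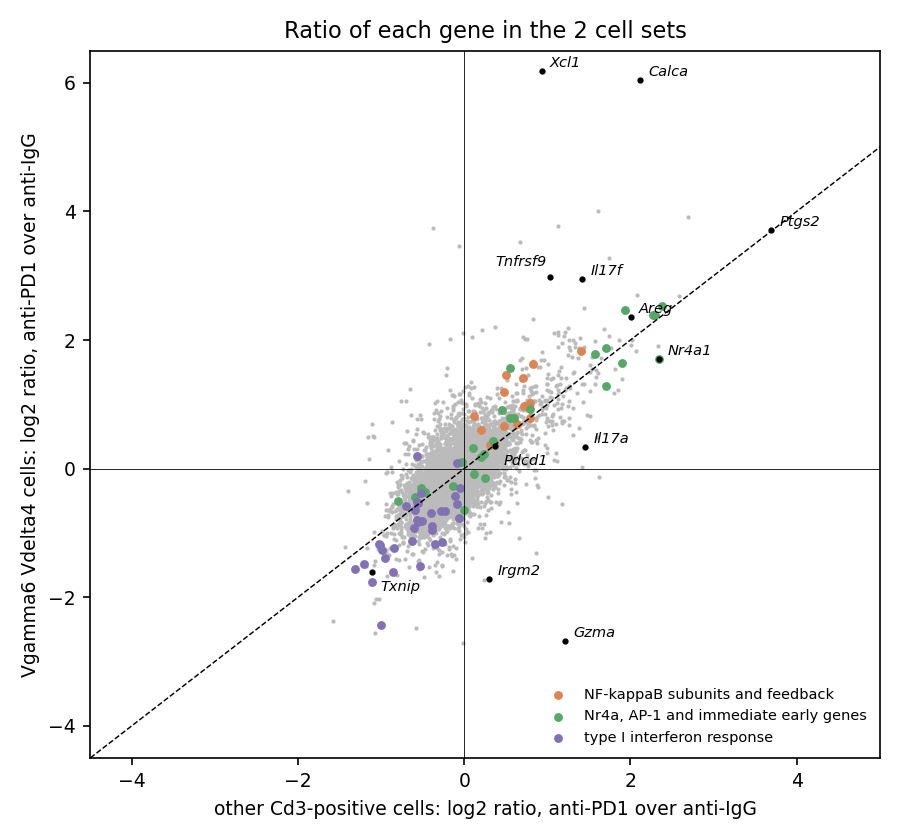
Log2 ratio, anti-PD1 over anti-IgG, in Vgamma6 Vdelta4 cells (vertical) against the other Cd3-positive cells (horizontal) for the 7896 genes compared in both; the dashed line marks equal ratios, and 3 lists are coloured. Both axes rest on the same 2 libraries. Il17a lies below the line (1.26 against 2.74 as ratios) and Tnfrsf9 above it (7.92 against 2.04).

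The ratios in members were set beside those in the other Cd3-positive cells of the same libraries. Of 7896 genes compared in both, 147 (1.86%) had a ratio at least 1.5 times and 139 (1.76%) at most 1/1.5 times that in the others with intervals that did not overlap. Il17a was among neither the 6 highest nor the 6 lowest of these, but its ratio was 1.26 in members and 2.74 (2.40 to 3.13) in the others. Among the others with a sum of 0 for the rule genes the ratio of Il17a was 2.60 (2.19 to 3.09). The 6 highest were Xcl1, Ccl1, Calca, H1f1, H2ac15 and Il22, which apart from Calca rested on 16 or fewer anti-PD1 members. The 6 lowest were Gzma, Cd14, Irgm2, Plac8, Ly6c1 and Cxcl2. Irgm2, seen in 38 and 25 members, had 0.303 in members and 1.23 (1.07 to 1.42) in the others. Cxcl2, a neutrophil attractant, had 0.914 (156 and 264 UMIs in 14 and 43 members) against 3.09. Nr4a1 was higher in both, by 3.25 in members and by 5.07 (4.83 to 5.33) in the others.

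Within the members, cells with and without Il17a were compared after thinning to 1000 UMIs, as a description. Nr4a1 was found in 22.9% of 96 Il17a-positive and 7.37% of 217 Il17a-negative anti-IgG members, and in 45.8% of 260 and 36.7% of 381 anti-PD1 members. Areg was found in 5.21% and 1.38% of anti-IgG and in 14.2% and 8.66% of anti-PD1 members. Il1r1 was found in 27.1% and 22.1% of anti-IgG and in 30.8% and 19.9% of anti-PD1 members. All 3 shares were larger in Il17a-positive cells in both libraries, with intervals apart for Nr4a1 in anti-IgG and Il1r1 in anti-PD1 members and overlapping in the other 4 cases. For Pdcd1 (49.0% and 42.4%, then 46.9% and 43.8%) the intervals overlapped in both libraries. The shares with Il23r were smaller in Il17a-positive cells (11.5% against 17.97%, then 15% against 17.3%), and that with Crem smaller in anti-IgG (2.08% against 6.45%) and larger in anti-PD1 members (23.8% against 20.5%), with overlapping intervals in each case.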

How the data were processed

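Single-cell RNA was measured in 1 library per group. The matrices the authors deposited hold whole-number UMI counts for each gene in each barcode, not normalized. The file headers record Cell Ranger 7.1.0. Version 7.2.0 stands in the submitters' processing notes, beside Seurat 4.4.0 and the genome build mm10. For the gene annotation a version was not given in the sources used here. Per the labels' protocols a 3' kit was used, but the barcodes look like those of a different kit, so the chemistry is unsettled. V segments lie far from the 3' end of their transcripts, and how their UMIs arose was not tested.

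Kept were 4309 and 5835 barcodes with 300 or more genes, 500 or more UMIs and up to 10% of UMIs from mitochondrial genes. UMIs of the members were summed per library and divided by their total; ratios have exact 95% intervals conditional on the summed UMIs, shares Clopper-Pearson intervals. A gene with 0 UMIs was set to a floor of 3 counts, and genes needed 50 summed UMIs to be compared. In bulk sums, fewer expressing cells and less RNA per cell cannot be told apart, so shares of members are given beside levels. For shares, cells were thinned to 1000 UMIs. Doublets were kept in the main values; as an alternative, the cells with the highest Scrublet scores (scanpy 1.11.5; 149 and 272 cells, at 0.8% per 1000 cells) were left out, since its automatic threshold marked 0 and 4 cells.

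Named genes were the 15 highest and 15 lowest ratios in members with an interval without 1, the 15 highest and 8 lowest against the other Cd3-positive cells, the 6 highest and 6 lowest against the others' ratio (mitochondrial, ribosomal, haemoglobin, immunoglobulin, receptor segment, Xist, Y-linked and unnamed predicted genes left out), the rule genes, 9 fixed lineage and cytokine genes, and the genes past 1.5 of the identity, program and response lists. Genes of the metabolism lists were named after their values were seen, as were the levels of further lineage genes. Some genes stand in more than 1 list, and some that fit the rule are not reported here. The members, lists and rules were chosen with earlier results of these data known. The ratio code was tested on simulated data. Promoters came from RefSeq (GRCm38.p6). Work used Python 3.11.15, numpy 2.4.6, scipy 1.17.1, pandas 2.3.3 and matplotlib 3.10.9.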

Additional observations from a re-analysis of the deposited data

Results flagged for a closer look

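For 5 genes the ratio, anti-PD1 over anti-IgG, reached 1.5 in one cell set and lay at or under 1/1.5 in the other, with both intervals without 1; the difference itself was not tested, since each group is 1 library.

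In Vgamma6 Vdelta4 cells, Lztfl1, a ciliary trafficking gene, had 13 UMIs in 12 and 50 UMIs in 45 members (ratio 2.08) against 0.615 in the other Cd3-positive cells. Trib1, a pseudokinase gene, had 39 UMIs in 22 and 34 UMIs in 24 members (0.471) against 1.58.

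The other 3 rested on few members. Gzma had 181 UMIs in 4 and 52 UMIs in 5 members (0.155) against 2.31. Cd14, a monocyte marker, had 43 UMIs in 5 and 32 UMIs in 7 members (0.402) against 1.82. Csf1r, a macrophage receptor gene, had 13 UMIs in 5 and 50 UMIs in 4 members (2.08) against 0.590.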

How the results depend on the processing

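The share of Vgamma6 Vdelta4 cells was 1.48 to 1.66 times as large in the anti-PD1 library under all 7 alternatives (other thresholds of the rule genes, Trdv4 and Trgv6 alone, stricter cell filters, without likely doublets or cells with other lineage UMIs, thinned). Counts of genes moved with depth: with members thinned to 1000 UMIs, 306 genes were higher and 295 lower among 3209 compared; with a minimum of 20 summed UMIs 860 and 1198; with a minimum of 200, 241 and 174. With a minimum of 200, 410 genes were at least 2 times as high as in the other Cd3-positive cells. Centring on the median gene gave 672 higher and 492 lower, against 547 and 694 uncentred. The other counts stayed within 1.5 times, but the genes changed: without members holding other lineage UMIs, 409 of the 547 higher and 427 of the 694 lower genes were still called. The alternatives of each gene without its highest cell and comparison cells with a sum of 0 were chosen after seeing the data, as were those of the ratio against the others and of list medians.

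Of 145 named genes past 1.5, 110 stayed past it under every alternative that left at least 20 UMIs, and 104 of the 145 had a value under all 11. Without members holding other lineage UMIs, 23 of all named genes had fewer than 20 UMIs left and no value. Among them were Il6ra, Cd27, Slfn1, Ly6c1, Rgs16, Xcl1 and Ccl4. Past the fold in 7 of 11 or fewer were Lef1 (5), Gbp8 (6) and Isg20, Klf2, Lck, S1pr4, Scart2, Tnip1 and Trgv1 (7 each), and Havcr2 in 4 of 10. Direction turned for Gzma (13.5), Fabp4 (1.68) and Plac8 (1.17) with Trdv4 and Trgv6 alone; for Cd40lg (1.70), Cd28 (1.05), Lck (1.03) and Fabp4 (1.89) without members holding other lineage UMIs; and for Scart2 (0.977) with thinned members. The cause was not tested. Il17a ranged from 1.16 to 1.47 and Pdcd1 from 1.12 to 1.35. Over other choices of members the medians of the NF-kappaB list were 0.93 to 0.98 and of the type I interferon list -0.92 to -0.83. No paired analysis was possible because each group is 1 library.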
